A study of Mus musculus with 12 samples.

Results

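Genes of sterol and fatty acid synthesis were followed in cultured neural progenitor cells of the mouse, with the lamin B1 gene intact or deleted. Lamin B1 is a protein of the meshwork under the nuclear envelope. The set held 33 genes, listed by name for their place in the 2 pathways, with earlier results of these data known: 20 of the sterol pathway and 13 of the fatty acid pathway. All 33 were present among the 43309 features of the day 5 table and the 42802 features of the day 9 table. All 33 also passed the filter on low counts at both days. Gene names and the pathways below are those of the mouse.

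There were 12 RNA-seq libraries of polyadenylated RNA, 3 for each of 4 groups. The cells came from C57BL/6 mice and were of genotype LaminB1+/+; Ai3, called WT here, or LaminB1fl/fl; Ai3, called cKO. Ai3 is an allele that makes the fluorescent protein EYFP after Cre recombinase has acted. Both genotypes had received a lentivirus expressing Cre from a Sox2 promoter, 5 or 9 days earlier, so that the controls carried Cre as well. Both were grown with 10 ng/ml each of EGF and FGF-2, and EYFP-positive cells were sorted for RNA. Sox2 is a gene of progenitor cells, and the sort keeps cells in which Cre had acted. The labels number the libraries 1 to 3 in each group and do not say whether they came from separate animals or cultures, so p-values measure the spread between these libraries, which may be technical.

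Cells build cholesterol from acetyl-CoA through mevalonate, squalene and lanosterol, and they build fatty acids from the same acetyl-CoA by chain synthesis, desaturation and elongation. The transcription factors SREBP-2 (gene Srebf2) and SREBP-1 (Srebf1) activate the genes of these pathways, SREBP-2 mainly those of sterol synthesis and SREBP-1 mainly those of fatty acid synthesis. When sterols are plentiful, Insig1 holds the SREBP precursors in the endoplasmic reticulum. In the brain, cholesterol is made locally, and oligodendrocytes make large amounts of cholesterol and fatty acids for myelin.

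Promoter windows from RefSeq, on mouse build GRCm38.p6, were found for 26 of the 33 genes. Each window held 250 bases before and 50 bases after the annotated start, read on the strand of the gene. Fads1, Fdft1, Fdps, Scd1, Scd2, Sqle and Stard4 had no entry. Both strands were searched for a sterol regulatory element (TCACNCCAC), the CCAAT box (CCAAT), the GC box (GGGCGG) and an E box (CACGTG). The 250 bases before the start are shown for Lss, the sterol gene whose response differed most clearly between days, for Ebp, the sterol gene with the largest fall at day 9, and for Hmgcs1, which enters the pathway. Lss lies at chr10:76531355-76531604 on the plus strand, Ebp at chrX:8193513-8193762 on the minus strand and Hmgcs1 at chr13:119690101-119690350 on the plus strand. Capitals mark matches to the 4 motifs on either strand; a CCAAT box on the other strand reads ATTGG and a GC box reads CCGCCC.
Lss: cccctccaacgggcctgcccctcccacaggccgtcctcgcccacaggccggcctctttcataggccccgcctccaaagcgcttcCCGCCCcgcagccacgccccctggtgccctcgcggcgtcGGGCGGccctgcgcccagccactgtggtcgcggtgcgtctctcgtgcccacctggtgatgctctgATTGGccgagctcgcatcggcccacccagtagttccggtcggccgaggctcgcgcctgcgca
Ebp: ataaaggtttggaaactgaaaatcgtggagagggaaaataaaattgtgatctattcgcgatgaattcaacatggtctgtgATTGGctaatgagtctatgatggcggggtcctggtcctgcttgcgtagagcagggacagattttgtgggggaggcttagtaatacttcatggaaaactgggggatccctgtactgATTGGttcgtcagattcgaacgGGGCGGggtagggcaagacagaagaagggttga
Hmgcs1: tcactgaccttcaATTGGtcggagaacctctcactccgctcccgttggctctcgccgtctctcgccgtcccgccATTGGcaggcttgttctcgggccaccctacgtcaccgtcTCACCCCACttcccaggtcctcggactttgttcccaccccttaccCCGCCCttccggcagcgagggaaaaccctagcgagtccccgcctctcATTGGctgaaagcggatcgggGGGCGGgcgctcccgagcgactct

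The CCAAT box was the motif that the windows had most in common. It was found in 23 of the 26, in 16 of 16 of the sterol genes and in 7 of 10 of the fatty acid genes; Acaca, Elovl6 and Fads2 lacked it. Shares are counted by gene, with a match in any window of the gene. Of all 27025 genes with a window 41.1% held it, and of the 10308 tested genes of day 9 with a window 43.2% did. The GC box was found in 20 of the 26 genes, against 38.2% of all genes with a window and 69.9% of the tested ones. The sterol regulatory element, as spelled above, was found in 1 gene, Hmgcs1, at base -137 from the start. It was found in 1.44% of all genes with a window and 1.37% of the tested ones. The E box was found in 5 genes (Dhcr7, Elovl5, Hsd17b7, Insig1 and Sc5d), against 8.09% of all genes with a window and 11.7% of the tested ones. A match is a run of letters, not a shown binding site. By response at day 9, among genes with a window, the CCAAT box was in 8 of 8 that fell, 2 of 2 that rose and 13 of 16 that did not pass.

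The libraries held 26720476 to 32127629 counts at day 5 and 13315273 to 24662809 at day 9. Levels are given as CPM, counts per 1000000, after scaling by the trimmed mean of M-values, for each day on its own. Lmnb1, the deleted gene, lay between 247.4 and 288.3 CPM in WT and between 37.79 and 45.04 CPM in cKO at day 5, and it fell at day 9 too, to a mean of 35.51 ± 3.45 CPM against 184.4 ± 27.2 (SD, n = 3 each). A set of 12 structural RNA features, such as ribosomal and 7SK RNA, took 72.42% of the counts of cKO replicate 1, 0.3615% of cKO replicate 2 and 71.19% of cKO replicate 3 at day 9. In the WT libraries of that day they took 15.89% to 34.93%. Replicates 1 and 3 of cKO at day 9 were the closest pair of libraries within any group, with a chi-square of 4.905 per degree of freedom, and therefore differed by more than sampling noise. At day 5, WT replicate 1 and cKO replicate 2 stood apart from the others, as described with the results. The progenitor markers Sox2 and Vim were expressed in every library, at 148.2 CPM or more and 326.4 CPM or more.

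At day 5 no gene of either pathway passed the test between cKO and WT. The edgeR quasi-likelihood test, with Benjamini-Hochberg adjustment over all 14849 genes tested, called 0 of 33 at 0.05, and 0 of 33 had an unadjusted p under 0.05. It called 1 gene of all (0.00673%), which was Lmnb1 (-2.68 ± 0.20, edgeR adjusted p = 0.0493). With Lmnb1 itself so near the threshold, smaller changes at day 5 could have been missed. DESeq2 and limma-voom also called 0 of the 33. The median log2 fold change was -0.30 over the sterol genes, of which 19 of 20 were negative, and -0.16 over the fatty acid genes, of which 8 of 13 were negative, against 0.01 over all genes tested. These medians come with wide errors on the single genes, as the plot of fold changes by role shows.

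**Figure D1:**
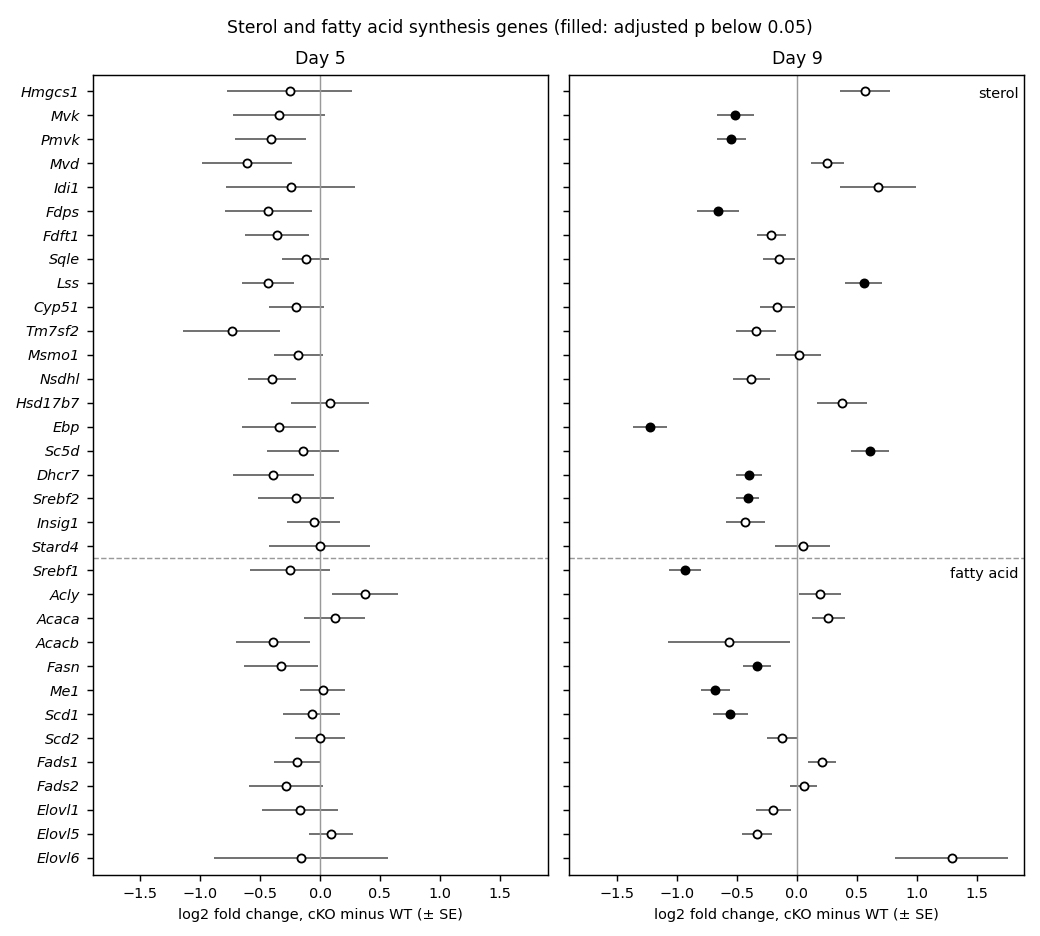
Log2 fold change of cKO against WT with its standard error (x axis) for each of the 33 genes (y axis, sterol genes above the dashed line and fatty acid genes below it) at day 5 and day 9. Filled points have an adjusted p below 0.05 (edgeR): none at day 5, and 12 at day 9, of which 2 lie to the right of 0 and 10 to the left.

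The 4 smallest p-values at day 5 all belonged to sterol genes. Lss, which closes the ring of lanosterol, had 291.2, 346.7 and 232.5 CPM in the WT libraries and 206.7, 218 and 219 CPM in the cKO libraries. The groups did not overlap, and the log2 fold change was -0.44 ± 0.21 (SE; edgeR adjusted p = 1), or -0.28 without WT replicate 2. Nsdhl, which removes the methyl groups at carbon 4 with its partners, had 207.2, 220.3 and 194 CPM in WT, against 170.4, 130.5 and 170.2 in cKO. These groups did not overlap either, with a change of -0.40 ± 0.20 that did not pass (adjusted p = 1). Lss and Nsdhl were the 2 of 33 genes whose groups were separate at day 5, and over all genes tested 2.85% were.

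Tm7sf2, a sterol reductase, had 64.37, 134.5 and 79.92 CPM in WT, against 78.02, 34.12 and 54.89 in cKO. The groups overlapped, and the change was -0.74 ± 0.40 (edgeR adjusted p = 1). Mvd, which makes isopentenyl diphosphate, had 134.7, 244.8 and 176.1 CPM in WT, against 175, 73.74 and 114.6 in cKO, a change of -0.61 ± 0.38 with overlapping groups (adjusted p = 1). For both genes the highest library was WT replicate 2 and the lowest was cKO replicate 2. The change of Tm7sf2 was -0.37 without the former, -0.48 without the latter and -1.04 without cKO replicate 1. That of Mvd was -0.36, -0.35 and -0.96 in the same cases. The other members ranged from -0.43 (Fdps) to 0.38 (Acly) on the log2 scale.

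The spread at day 5 had a shape shared by many members. Hmgcs1, the enzyme that condenses acetyl units before mevalonate, had 1219.5, 503 and 416 CPM in WT, against 342.4, 920.9 and 532.2 in cKO. Elovl6, which lengthens saturated fatty acids, had 219.5, 64.68 and 50.8 CPM in WT, against 50.2, 191.4 and 58.36 in cKO. In both genes WT replicate 1 and cKO replicate 2 were the 2 highest libraries. Idi1, Stard4, Sc5d and Hsd17b7 shared this order. Fdps, which builds farnesyl diphosphate, showed the opposite order: 597.6, 1022.8 and 749.4 CPM in WT, against 819.5, 351.6 and 584.5 in cKO, with WT replicate 1 low for its group and cKO replicate 2 the lowest of all. These genes were picked after their values were seen.

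The order went with the GC content of the transcripts, whose part in the day 5 values was not tested apart from the GC-corrected fit, which also called 0 of the 33. Over the 33 genes, Pearson's r between GC content and the deviation from the group mean was -0.84 in WT replicate 1 and -0.77 in cKO replicate 2, and lay between 0.19 and 0.83 in the other day 5 libraries. Over all 14739 genes tested with a transcript sequence it was -0.68 and -0.61 in the same 2 libraries. The points of each correlation are genes of 1 library and are no replicates. Structural RNA took 14.2% of the counts of cKO replicate 2 and at most 0.509% in the other day 5 libraries. Without the 2 libraries, the test at day 5 still called 0 of the 33, and the median over them was -0.12.

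**Figure D2:**
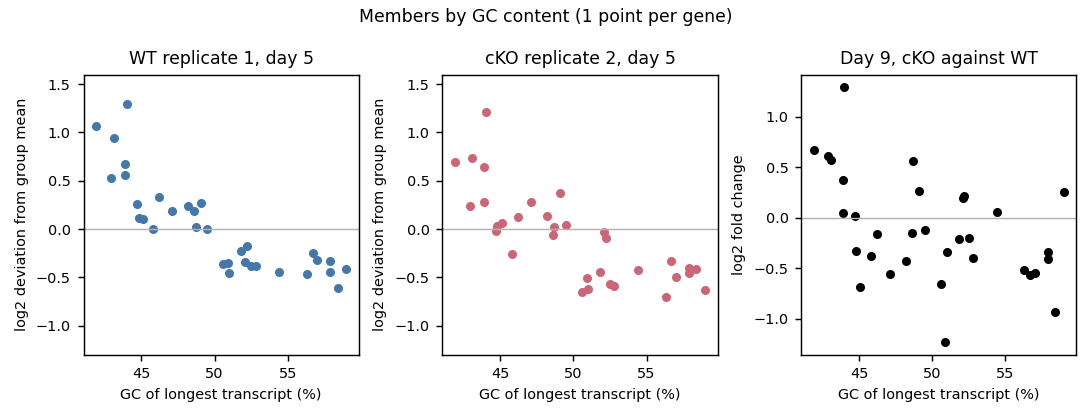
GC content of the longest transcript (x axis, percent) against the log2 deviation of a gene from its group mean in WT replicate 1 and cKO replicate 2 at day 5 (y axis of the left and middle panels), and against the log2 fold change of cKO against WT at day 9 (right panel), with 1 point for each of the 33 genes. The 2 libraries of day 5 both slope downwards, with r of -0.84 and -0.77, and the day 9 fold changes slope less, with r of -0.47.

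At day 9 the members moved in both directions, with more lower than higher. Of the 33, 2 rose and 10 fell in cKO (edgeR quasi-likelihood test, adjusted p below 0.05), together 36.4%, while 43.6% of all 14617 genes tested were called, 21% higher and 22.6% lower. The share of members called was therefore not above that of all genes. In the sterol pathway 2 of 20 rose and 6 of 20 fell, and in the fatty acid pathway 0 of 13 rose and 4 of 13 fell. The median log2 fold change was -0.19 over the sterol genes and -0.20 over the fatty acid genes, against 0.01 over all genes. Without WT replicate 2, cKO replicate 1 or cKO replicate 3 the count that fell was 5, and without WT replicate 1, WT replicate 3 or cKO replicate 1 the count that rose was 1. Groups were separate for 15 of 33 members, and for 57.8% of all genes tested. The largest changes past the threshold were those of Ebp and Srebf1, at 0.4234 and 0.5216 times the WT mean.

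In bulk RNA of this kind, fewer cells of a type and less RNA per cell cannot be told apart. Markers of other cell types moved with genotype at day 9. Of 10 oligodendrocyte markers 8 were tested and 8 rose, and their summed level was 224.5 to 305.5 CPM in WT and 1370.4 to 1970.0 CPM in cKO. Of 7 astrocyte markers 6 rose (917.5 to 1257.7 CPM in WT, 2111.8 to 2493.8 in cKO), and of 7 tested neuron markers 5 rose (127.4 to 293.1 CPM, 521.2 to 584 in cKO). Of 8 dividing-cell markers 7 fell (412.7 to 552.8 CPM, 91.19 to 105.3 in cKO), and of 8 progenitor markers 1 rose and 5 fell (3789.4 to 4274.8 CPM, 2378.8 to 2830.7 in cKO). The microglial markers C1qa, C1qb and Aif1 and the endothelial marker Cdh5 were at 0 in all 6 libraries. All 7 microglial markers were under 1 CPM in every library, and 0 were tested. Of 6 endothelial markers 2 were tested, at low levels, and 1 rose and 1 fell. Kdr rose (1.454 to 1.78 CPM in WT, 2.494 to 3.193 in cKO) and Flt1 fell (1.13 to 1.685 CPM, 0.4778 to 0.6235 in cKO). The part of these cell types in the changes of lipid genes was not tested. At day 5 none of these markers passed the test.

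**Figure D3:**
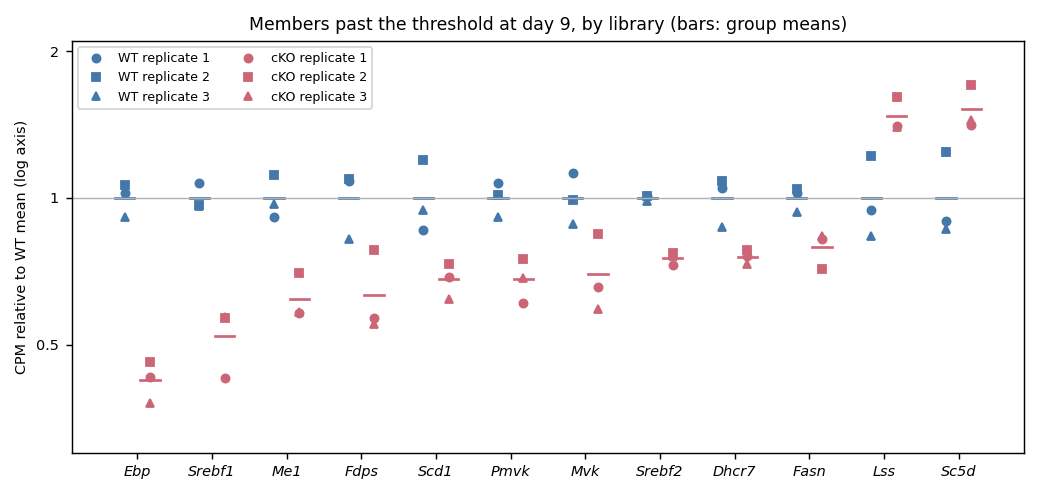
CPM of each library at day 9 divided by the WT mean of that gene (y axis, log scale) for the 12 genes past the threshold (x axis), with circles, squares and triangles for replicates 1, 2 and 3 and bars for group means. In all 12 genes the 3 cKO libraries lie on 1 side of the 3 WT libraries, below for 10 genes and above for Lss and Sc5d.

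Among the genes from acetyl-CoA to farnesyl diphosphate, 3 of 6 fell and none rose. Mvk, the kinase that acts on mevalonate, had 55.74, 49.09 and 43.77 CPM in WT, against 32.58, 41.72 and 29.27 in cKO, a log2 fold change of -0.51 ± 0.16 (edgeR adjusted p = 0.031). Pmvk, the kinase of the next step, had 48.71, 46.22 and 41.62 CPM in WT, against 27.75, 34.17 and 31.1 in cKO (-0.55 ± 0.12, adjusted p = 0.00883). Every cKO library lay below every WT library in both genes. Fdps had 227.1, 229.2 and 172.3 CPM in WT, against 118.6, 163.5 and 115.2 in cKO, a change of -0.66 ± 0.17 (adjusted p = 0.0177). In Mvk and Fdps cKO replicate 2 came closest to WT. Neither call held without WT replicate 1, WT replicate 2, cKO replicate 1 or cKO replicate 3. The edgeR adjusted p was then 0.101, 0.0957, 0.0997 and 0.0843 for Mvk, and 0.0542, 0.0823, 0.0711 and 0.0646 for Fdps. With 1 library left out the change lay between -0.7 and -0.41 for Mvk and between -0.86 and -0.57 for Fdps.

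The other genes of this stretch did not pass, and their values went the other way. Hmgcs1 had 570.3, 750 and 456.1 CPM in WT, against 813.3, 1075.6 and 744.9 in cKO, with 1 WT library inside the cKO range (0.57 ± 0.21, edgeR adjusted p = 0.0612). Idi1, which isomerises isopentenyl diphosphate, stood at 67.37 ± 20.8 CPM in WT and 107 ± 33.4 in cKO (SD, n = 3; 0.67 ± 0.32, adjusted p = 0.131). Mvd was at 68.46 ± 10.7 and 81.52 ± 8.25 CPM (adjusted p = 0.161). With the correction for GC content Hmgcs1 was at 0.11 ± 0.23 and Idi1 at 0.11 ± 0.30. Mvd went the other way, from 0.25 ± 0.14 to 0.51 ± 0.17, and passed with the correction (edgeR adjusted p = 0.0488). The size of these values therefore depended on that setting.

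Of the 3 genes from squalene to lanosterol, Lss rose. It had 129.5, 166.9 and 114.2 CPM in WT, against 192.4, 220.4 and 191.2 in cKO, a change of 0.56 ± 0.15 (edgeR adjusted p = 0.0202), and the groups did not overlap. Without WT replicate 1, WT replicate 3 or cKO replicate 1 the adjusted p was 0.0705, 0.0692 and 0.055, and the change was 0.43 at least. Fdft1, which joins 2 farnesyl units into squalene, and Sqle, which oxidises squalene, did not pass, at -0.21 ± 0.12 and -0.15 ± 0.14.

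After lanosterol, 2 of 8 genes fell and 1 rose. Ebp, the isomerase that moves the double bond of the sterol ring, had 17.83, 18.54 and 15.94 CPM in WT, against 7.483, 8.046 and 6.613 in cKO. It had the smallest p of the 33 genes, with a change of -1.23 ± 0.14 (edgeR adjusted p = 0.000394). The 3 libraries of each genotype lay close together, and the highest cKO library was far below the lowest WT library. Sc5d, the desaturase that acts after Ebp, had 32.94, 45.57 and 31.76 CPM in WT, against 51.91, 62.64 and 53.19 in cKO (0.61 ± 0.16, adjusted p = 0.0176). Dhcr7, which acts on the product of Sc5d, had 149.9, 155 and 125.2 CPM in WT, against 108.8, 112.3 and 104.7 in cKO (-0.40 ± 0.11, adjusted p = 0.0213). The groups were separate in all 3 genes. With each library corrected for its trend on GC content, the fall of Ebp passed (-1.12 ± 0.16, adjusted p = 0.00158), while Sc5d was at 0.11 ± 0.19 (adjusted p = 0.678) and Dhcr7 at -0.23 ± 0.13 (adjusted p = 0.204).

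The calls of Sc5d and Dhcr7 were less stable than that of Ebp. Without WT replicate 1 or WT replicate 3 the adjusted p of Sc5d was 0.0674 and 0.0617 (edgeR). Without WT replicate 1, WT replicate 2, cKO replicate 1 or cKO replicate 3 that of Dhcr7 was 0.0554, 0.082, 0.0689 and 0.0735. Ebp kept an adjusted p of 0.00459 or less whichever library was left out. The 5 other genes after lanosterol, which are Cyp51, Tm7sf2, Msmo1, Nsdhl and Hsd17b7, had changes between -0.38 (Nsdhl) and 0.38 (Hsd17b7), and none passed.

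Both SREBP genes fell. Srebf2 had 331.2, 330.5 and 322.7 CPM in WT, against 238.5, 252.8 and 249.2 in cKO, a change of -0.41 ± 0.10 (edgeR adjusted p = 0.0108). Srebf1 had 126, 113.5 and 113.2 CPM in WT, against 50.2, 66.68 and 67.12 in cKO, a change of -0.94 ± 0.13 (adjusted p = 0.00107). The groups were separate in both genes, and both calls held whichever single library was left out, with adjusted p at most 0.0449 and 0.0085. With the GC correction Srebf1 passed (-0.68 ± 0.14, adjusted p = 0.00863) and Srebf2 did not (-0.15 ± 0.11, adjusted p = 0.305). Insig1, which retains the SREBP precursors, had separate groups at means of 230.6 ± 43 and 170.9 ± 25.3 CPM (SD, n = 3), but its change of -0.43 ± 0.16 did not pass (adjusted p = 0.0623). Stard4, a carrier of cholesterol, stood at 0.05 ± 0.23. Total Srebf1 counts do not separate the SREBP-1a and SREBP-1c transcripts.

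In fatty acid chain synthesis, 2 of 5 genes fell. Me1, an enzyme that supplies NADPH, had 88.24, 107.6 and 93.44 CPM in WT, against 55.96, 67.49 and 56.28 in cKO, a change of -0.68 ± 0.12 (edgeR adjusted p = 0.00331). Its call held whichever library was left out, with an adjusted p of 0.0209 at most. Fasn, the fatty acid synthase, had 813.3, 825.6 and 742 CPM in WT, against 654.6, 567.5 and 663 in cKO (-0.34 ± 0.12, adjusted p = 0.0466; -0.09 ± 0.12 with the GC correction). The groups of Fasn did not overlap, but its adjusted p rose to between 0.0644 (without cKO replicate 2) and 0.126 (without WT replicate 2) whichever of the 6 libraries was left out. Acly and Acaca, which make cytosolic acetyl-CoA and malonyl-CoA, had values of 0.19 ± 0.17 and 0.26 ± 0.14, and did not pass. Acacb was at 0.669 CPM or less in every library.

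Of the 4 desaturases, Scd1 fell. Scd1, which places the first double bond in saturated fatty acids, had 396.7, 554.1 and 436.9 CPM in WT, against 318.3, 338.9 and 287 in cKO (-0.56 ± 0.15, edgeR adjusted p = 0.0182). Without WT replicate 2, cKO replicate 1 or cKO replicate 3 its adjusted p was 0.0641, 0.0582 and 0.0647. Scd2, its more abundant relative in these cells, had 3402.8, 4040.0 and 4019.5 CPM in WT, against 3310.9, 3881.8 and 3342.8 in cKO, with overlapping groups (-0.12 ± 0.13, adjusted p = 0.472). Scd1 and Scd2 are similar in sequence, so that their counts depend on how shared reads were assigned. Fads1 and Fads2, which desaturate polyunsaturated fatty acids, had values of 0.21 ± 0.12 and 0.06 ± 0.11 and did not pass.

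None of the 3 elongases passed. Elovl6 nevertheless had the largest fold change of the 33 genes: 28.34, 16.35 and 7.474 CPM in WT, against 40.06, 48.93 and 38.55 in cKO. Every cKO library was above every WT library, the WT libraries differed among themselves by more than the cKO libraries, and the change of 1.29 ± 0.47 had an edgeR adjusted p of 0.0715. It passed without WT replicate 1 (1.83 ± 0.35, adjusted p = 0.0111) and without WT replicate 3 (0.92 ± 0.25, adjusted p = 0.0289). It also passed in DESeq2 (adjusted p = 0.00306) and in limma-voom (adjusted p = 0.0343). It did not pass without WT replicate 2, cKO replicate 1, cKO replicate 2 or cKO replicate 3 (edgeR adjusted p = 0.168, 0.145, 0.193 and 0.131). With the GC correction it was at 0.96 ± 0.39 and did not pass (edgeR adjusted p = 0.0959). With all 12 libraries in 1 fit it did not pass either (edgeR adjusted p = 0.199). Elovl1 and Elovl5, which act on longer and on polyunsaturated chains, had values of -0.20 ± 0.15 and -0.33 ± 0.13. Elovl6 was singled out after its values were seen.

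**Figure D4:**
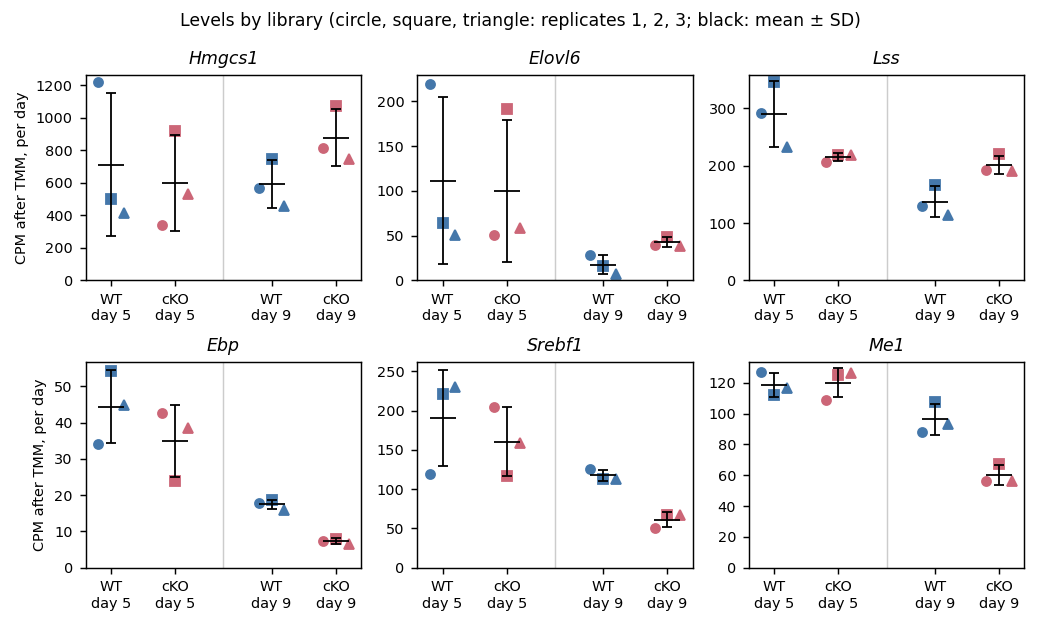
CPM (y axis, from 0, scaled within each day so that heights are to be compared within a day) of Hmgcs1, Elovl6, Lss, Ebp, Srebf1 and Me1 in the 12 libraries, by group (x axis), with circles, squares and triangles for replicates 1, 2 and 3 and the mean ± SD in black. At day 5 WT replicate 1 and cKO replicate 2 are the highest libraries for Hmgcs1 and Elovl6 and the lowest for Ebp and Srebf1, and at day 9 the groups are separate for Elovl6, Lss, Ebp, Srebf1 and Me1.

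GC content also moved with the day 9 fold changes. Pearson's r between GC content and log2 fold change was -0.47 over the 33 genes and -0.29 over all 14184 genes with a transcript sequence. With each library corrected for its trend on GC content, a setting added after the data were seen, 5 of the 12 called genes still passed: Lss, Ebp, Srebf1, Me1 and Scd1. Their corrected changes were 0.56, -1.12, -0.68, -0.96 and -0.66. Of the 7 that did not, Fdps kept most of its size (-0.57 ± 0.20, edgeR adjusted p = 0.0589). The others came closer to 0: Sc5d to 0.11 ± 0.19, Srebf2 to -0.15 ± 0.11, Fasn to -0.09 ± 0.12, Mvk to -0.26 ± 0.18, Pmvk to -0.29 ± 0.14 and Dhcr7 to -0.23 ± 0.13. The GC correction was fitted on deviations from the mean of both genotypes. It therefore also removes any genotype difference that goes with GC content, and cannot tell that from a trend of the libraries. The change of Ebp, Srebf1 and Me1 also passed on TPM values rescaled without structural RNA (added after the data were seen). It also passed with all 12 libraries in 1 fit, while the other 9 called genes passed in neither. On rescaled TPM the median log2 fold change of all genes tested was -0.27, so that scale leaned towards falls. With cKO replicates 1 and 3 left out, which leaves cKO replicate 2 alone, Ebp and Srebf1 passed, and the lone library is then assumed to vary like the WT libraries.

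The genotype effect at day 9 was compared with that at day 5 in 1 fit of all 12 libraries. Lss alone among the 33 passed: its change was -0.44 at day 5 and 0.56 at day 9, a difference of 0.99 ± 0.25 on the log2 scale (edgeR adjusted p = 0.0369). Over all 15323 genes tested 7.71% were called in this comparison, 2.57% higher and 5.14% lower. With 1 library left out, the call held only without WT replicate 3 or cKO replicate 2 of day 5 or without WT replicate 2 of day 9. It was lost without each of the other 9 libraries, with adjusted p up to 0.166 (without WT replicate 3 of day 9), and over all 12 cases the difference lay between 0.83 and 1.14. Me1 came next, with 0.02 at day 5 and -0.68 at day 9, a difference of -0.70 ± 0.20 (adjusted p = 0.054). For Ebp the difference was -0.89 ± 0.33 (adjusted p = 0.165) and for Srebf1 -0.69 ± 0.37 (adjusted p = 0.359). Me1 passed without WT replicate 1 of day 5 (-0.78 ± 0.20, adjusted p = 0.0466) and without cKO replicate 2 of day 9 (-0.83 ± 0.20, adjusted p = 0.0376). With all 12 libraries kept, Me1 also passed in DESeq2 (-0.73 ± 0.18, adjusted p = 0.00136) and in edgeR with RLE size factors (-0.74 ± 0.19, adjusted p = 0.0389). Ebp passed without cKO replicate 2 of day 5 (-1.10 ± 0.28, edgeR adjusted p = 0.0266). With all 12 libraries kept, the falls of Ebp and Srebf1 at day 9 were therefore not shown to differ from their values at day 5. For Elovl6 the difference was 1.45 ± 0.96 (adjusted p = 0.47).

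The pathways were also set against each other, with no test. The median fold change of the sterol genes minus that of the fatty acid genes was -0.14 at day 5 and 0.01 at day 9. The value at day 5 depended on single libraries, and was -0.40 without WT replicate 1 and -0.48 without cKO replicate 1. With the GC correction the value was -0.15 at both days, and on deposited TPM with pseudocounts of 1 and 0.1 it was -0.12 and -0.07 at day 9. The 17 sterol enzymes summed to 4946.6, 4821.8 and 3915.3 CPM in WT, against 3801.0, 3477.8 and 3655.1 in cKO at day 5, with each cKO library below each WT library. At day 9 the sums were 2205.9, 2637.0 and 1916.5 CPM in WT, against 2294.2, 2863.5 and 2136.1 in cKO, and the groups overlapped. The 12 fatty acid enzymes summed to 7422.7, 8162.6 and 7861.5 CPM in WT, against 7408.7, 7330.9 and 7654.5 in cKO at day 5. At day 9 they summed to 6139.1, 6964.6 and 6887.5 CPM in WT, against 5898.4, 6615.6 and 5972.0 in cKO, again with overlap. A sum is dominated by its most abundant genes, here Hmgcs1, Fdps, Scd2 and Fasn.

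Across days the pathways stood differently in WT cells. With all 12 libraries on 1 scale, the median ratio of day 9 to day 5 was 0.753 over the 20 sterol genes, 1.29 over the 13 fatty acid genes and 0.991 over all genes. All 3 WT libraries of day 9 lay below all 3 of day 5 for 8 of 20 sterol genes (40%), and above for 1 (5%), which was Insig1. They lay above for 6 of 13 fatty acid genes (46.2%) and below for 3 (23.1%). Over all genes tested, 20.6% lay below and 24.4% above. Fdps was at 638.4 ± 168 CPM at day 5 and 268.6 ± 41.9 at day 9 (SD, n = 3). Mvk was at 128.5 ± 36.7 and 63.53 ± 8.19 CPM. Both genes of the mevalonate steps thus had separate days, as had Scd2 in the other direction, at 3159.0 ± 48.1 and 4894.9 ± 422 CPM. In cKO the median ratios were 0.895 for the sterol and 1.09 for the fatty acid genes, and 1.04 over all genes. There 6 sterol genes lay below and 2 above, and 4 fatty acid genes lay below and 4 above, while 24.3% of all genes lay below and 22.8% above. Day and deposited table cannot be told apart, so these ratios carry no test.

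Levels between genes were compared in TPM, transcripts per 1000000 corrected for transcript length, rescaled to that total without the structural RNA. Scd2 was the most abundant of the 33 genes in WT on both days, at 1113.3 ± 123 TPM at day 5 and 1911.6 ± 214 TPM at day 9 (SD, n = 3). At day 5 it was followed by Fdps (1002.3 ± 233 TPM), which did not differ from it beyond the spread, Fads2 (557.3 ± 117) and Hmgcs1 (360 ± 262). At day 9 Fads2 (536.2 ± 17.2 TPM), Hmgcs1 (502.2 ± 131) and Fdps (470.8 ± 72) came next and did not differ beyond their spread. Acacb was the lowest on both days, at 0.6651 ± 0.0809 and 0.2258 ± 0.0928 TPM. Srebf2 was more abundant than Srebf1 in WT, at 206.6 ± 44.5 against 82.34 ± 21.6 TPM at day 5 and 179.3 ± 3.74 against 98.6 ± 6.81 TPM at day 9. Ebp ranked 28 of the 33 in WT at day 9 and 30 in cKO.

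A further 85 genes in 7 lists of neighbouring lipid pathways were examined in the same fits, and none passed at day 5. Of all genes tested at day 9, 43.6% were called, 21% higher and 22.6% lower, which is the share to set beside each list. In fatty acid oxidation 10 of 14 genes fell and 1 rose, together 78.6%. Cpt1a, which admits fatty acids to mitochondria, had 67.89, 82.4 and 80.06 CPM in WT, against 39.6, 41.97 and 43.48 in cKO (-0.88 ± 0.11, edgeR adjusted p = 0.000529). Acads, a short-chain acyl-CoA dehydrogenase, fell too (-0.98 ± 0.16, adjusted p = 0.00204). The median of this list was -0.42, below those of both synthesis pathways.

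Of the enzymes of sphingolipid and myelin lipid synthesis 4 of 11 rose and 1 fell, together 45.5%, near the 43.6% of all genes. Fa2h, which hydroxylates the fatty acids of myelin lipids, had 1.949, 1.757 and 3.228 CPM in WT, against 42.25, 52.6 and 39.68 in cKO (4.27 ± 0.26, edgeR adjusted p = 2.82e-05). Ugt8a, which makes galactosylceramide, rose by 2.41 ± 0.30 on the log2 scale (adjusted p = 0.00111), and Sptlc1, of the first step, fell (-0.64 ± 0.12, adjusted p = 0.00514). Fa2h and Ugt8a are genes that oligodendrocytes express at high levels, and the oligodendrocyte markers rose in the same libraries, as given above. The part of oligodendrocytes in the rises of Fa2h and Ugt8a was not tested. Among 19 other genes of fatty acid synthesis and activation, 6 rose and 6 fell, together 63.2%. Acsl3, an acyl-CoA synthetase, rose by 2.25 ± 0.25 and Elovl7, an elongase, by 2.11 ± 0.20 (adjusted p = 0.000904 and 0.000172). Acsl5 and Hsd17b12 fell, at -1.03 ± 0.16 and -0.80 ± 0.13 (adjusted p = 0.00184 and 0.00269).

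Among 15 genes of sterol uptake, storage and efflux, 3 rose and 3 fell, together 40%, near the 43.6% of all genes. Abca1, which exports cholesterol, had 20.85, 12.69 and 9.597 CPM in WT, against 57.37, 44.31 and 45.17 in cKO (1.76 ± 0.29, edgeR adjusted p = 0.00449). Scarb1, a receptor for high-density lipoprotein, had 162, 147.4 and 135.4 CPM in WT, against 45.67, 57.61 and 53.61 in cKO (-1.50 ± 0.12, adjusted p = 7.62e-05). Vldlr, a lipoprotein receptor, rose (0.50 ± 0.17), and Stard3, a cholesterol carrier of late endosomes, fell (-0.72 ± 0.14). Each of these changes of Abca1 and Scarb1 was larger than that of any sterol synthesis gene.

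Of 8 genes that process or turn over the SREBPs, 1 rose and 3 fell, together 50%, against 43.6% of all genes. Mbtps1 and Mbtps2 are the proteases that cut the SREBPs in turn, and they changed in opposite directions, at -0.64 ± 0.10 and 0.93 ± 0.32 (edgeR adjusted p = 0.00166 and 0.0494). Erlin2, which takes part in the breakdown of sterol-regulated proteins, fell (-0.40 ± 0.12, adjusted p = 0.0273). Of 6 tested genes of other isoprenoid and sterol synthesis 1 rose and 3 fell, together 66.7%. Lbr, a protein of the inner nuclear membrane that binds lamin B and is also a sterol reductase, had 20.51, 34.21 and 22.45 CPM in WT, against 16.68, 13.05 and 14.49 in cKO (-0.81 ± 0.21, adjusted p = 0.0171). Dhdds and Nus1, the subunits of the enzyme that makes dolichol chains, fell and rose, at -0.54 ± 0.11 and 0.50 ± 0.16. In glycerolipid synthesis 2 of 11 rose, among them Gpam (0.71 ± 0.12), and 2 fell, among them Lpin1 (-1.02 ± 0.17), together 36.4%.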

How the data were processed

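RNA abundance was measured in 12 libraries. Per the submitters' processing notes, Bowtie2 and RSEM were used with build mm10; the annotation and the strand setting were not given in the sources used here. The authors deposited expected counts per gene, unnormalized, and TPM, in 1 table of each for each day. Expected counts were rounded to whole numbers. Day 5 identifiers and day 9 symbols were matched to a reference table (97.96% and 97.75% matched), and 41592 symbols occurred once in both. Genes were filtered with filterByExpr, scaled by TMM and tested with the edgeR 4.0.16 quasi-likelihood test (R 4.3.3), each day on its own and both days for the difference, with Benjamini-Hochberg adjustment over all genes tested and a threshold of 0.05. Standard errors were obtained from the F statistic, as the size of the log2 fold change over the root of F. DESeq2 1.42.0 and limma 3.58.1 were alternatives; the limma fits on deposited TPM used pseudocounts of 1 and 0.1. The scripts were tested on simulated counts.

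Values in every library were given for members called at day 9 or in the day difference, for the 4 with the smallest day 5 p and for the SREBP genes. From each neighbouring list at most the 2 risen and 2 fallen genes with the largest change and a mean of at least 5 CPM were named. A result for 1 gene of these lists is not reported here. The members and lists were chosen with earlier results of these data known, and the 12 structural RNA features were listed after the data were seen. Same-numbered libraries did not all deviate together (r of -0.72, -0.50 and 0.53 at day 5 and 0, -0.20 and -0.06 at day 9), so the numbers were not treated as pairs. Libraries of unlike number had the highest r at day 5, at 0.76 for WT replicate 1 with cKO replicate 2 and 0.59 for WT replicate 3 with cKO replicate 1. Total counts per library give the depth; the precision of a value is that of 3 libraries.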

Additional observations from a re-analysis of the deposited data

Results flagged for a closer look

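The effect of genotype on Lss differed between the days, with a day 9 change minus day 5 change of 0.99 ± 0.25 on the log2 scale (edgeR adjusted p = 0.0369). It lost its call in 12 of 20 alternatives, with adjusted p from 0.00752 to 0.166, and no alternative changed its sign.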

How the results depend on the processing

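At day 5 no alternative called any of the 33 genes. There the sterol median minus the fatty acid median ranged from -0.48 to -0.10 with 1 library left out. At day 9 the count of members that rose, 2 as reported, was 6 in DESeq2, 1 with no low-count filter, and 0 in each of 5 other settings: all 12 libraries in 1 fit, limma on log2(TPM + 1), on log2(TPM + 0.1) and on rescaled TPM, and cKO replicates 1 and 3 left out. The count that fell, 10 as reported, was 3, 0, 0, 3 and 2 in these 5 settings, and 6 with the GC correction. With 1 library left out, 1 to 3 rose and 5 to 13 fell. On deposited TPM the median of all genes tested shifted to -0.79 and -1.02 (pseudocounts 1 and 0.1). The changes of Lss and Sc5d, both reported as rises, turned to -0.62 and -0.43, and to -0.64 and -0.46. On rescaled TPM that median was -0.27, and Lss and Sc5d were at 0.10 ± 0.36 and 0.27 ± 0.37. Of 216 single-gene values of the 12 called genes under alternatives, 126 kept their call, 86 lost it and 4 turned sign. Genes called only in an alternative at day 9 included Hmgcs1, Idi1, Mvd, Insig1, Nsdhl, Elovl5 and Elovl6.

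The difference between days, with 1 gene higher and 0 lower, gave 1 lower (Me1) in DESeq2 and with RLE size factors. It gave 0 higher with no low-count filter and without structural RNA, and 2 higher (Lss and Mvd) with the GC correction. It gave 2 lower (Ebp and Me1) with WT replicate 1 and cKO replicate 2 of day 5 both left out. With 1 library left out it gave 0 to 1 higher and 0 to 1 lower. With the replicate number as a block, which the labels do not say is a pairing, 4 members rose at day 9, 0 were called at day 5 and 0 were higher in the day difference. Depth was not compared by thinning, and with 3 libraries a group changes smaller than those named could be missed. Alternatives named as added were chosen after seeing the data.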
